A study of Arabidopsis thaliana with 115 samples.

Results

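The enzymes that turn sulfate into sulfide in Arabidopsis were followed in root cells across 33 nitrogen-early response TFs. The 8 genes are the ATP sulfurylases APS1, APS2, APS3 and APS4, the APS reductases APR1, APR2 and APR3, and the sulfite reductase SIR. They were taken by their gene identifiers from the 33016 genes in the files, and all 8 were among the 22883 genes that could be tested. The set was chosen by gene identifier with the fold changes and calls of these genes against EV, the empty vector control, already known. The calls below are therefore a description and no independent evidence.

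In plants, sulfate taken up by the SULTR transporters is first activated by ATP sulfurylase, which makes adenosine 5'-phosphosulfate. This intermediate is either reduced to sulfite by APS reductase or phosphorylated by the APS kinases for the sulfation of metabolites such as glucosinolates. Sulfite reductase turns sulfite into sulfide, which is joined to O-acetylserine to give cysteine, the point at which sulfur meets nitrogen metabolism. APS reductase is known as a main control point of the pathway, and its transcripts are known to rise in sulfur-starved roots.

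The data came from the TARGET assay, in which a TF is brought into isolated cells and its release into the nucleus is timed. Root cells of Col-0 seedlings, 10 days old, were freed of their walls and took up a plasmid that expresses a TF fused to the glucocorticoid receptor (GR) or, as the empty vector (EV), GR alone. Every TF and EV library came from cells given 20 mM KNO3 with 20 mM NH4NO3 (60 mM nitrogen), 35 µM cycloheximide (CHX), which blocks translation, and 10 µM dexamethasone (DEX), which lets the fusion protein enter the nucleus. Transfected cells were sorted by fluorescence, and cells with red and green reporter vectors were pooled before the sort. The TF was thus overexpressed from a plasmid in isolated cells. There were 97 TF libraries and 18 EV libraries in 6 batches, with 3 EV libraries per batch. Of the 33 TFs, 31 had 3 libraries, and FBH4 and HAT22 had 2 each. TGA1 was the only TF of batch 2, and batch 1 covered HSFB2A, GATA17 and ERF056. In batch 3 were TGA4, HYH, HHO3 and HB6, besides GATA17L, CRF4, COL5 and BEE2. The 9 TFs of batch 4 were ZFP4, NAC4, LBD38, HHO2 and ERF060, besides CDF1, C2H2, bZIP3 and ASR3. WRKY18, TCP23, NAP, MYB61, HAT22 and FBH4 belonged to batch 5, and WRKY54, VRN1, RAV1, LBD37, ERF5 and DIV1 to batch 6. Replicates were wells of 1 transfection assay, so the p-values measure the spread within an assay.

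Library totals ran from 1542961 to 45372240 counts, with a median of 12336285. Batches 5 and 6 were shallower (median 5198905.5 counts), and their 10 most abundant genes took 18.3% to 49.5% of the counts, against 4.69% to 8.14% in batches 1 to 4. The lists of root cell markers and leaf mesophyll markers were checked against the labelled tissue. Of 12 root markers (epidermis, cortex, endodermis and stele), at least 7 were detected in every library. The 4 leaf mesophyll markers summed to at most 1.16 CPM in TF libraries and 0.772 CPM in EV libraries. CPM (counts per 1e6 counts) was taken on the TMM-scaled library size. In pooled cells, fewer cells of a type and less RNA per cell cannot be told apart.

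Positions are those of TAIR10. APS1 (AT3G22890) lies on chromosome 3 from 8112614 to 8115024 on the forward strand, and APS2 (AT1G19920) on chromosome 1 from 6914518 to 6916823 on the reverse strand. APS3 (AT4G14680) occupies 8413263 to 8415650 of chromosome 4, and APS4 (AT5G43780) 17589394 to 17591737 of chromosome 5, both on the reverse strand. APR1 (AT4G04610) was annotated on chromosome 4 from 2324878 to 2327064 on the forward strand. APR2 (AT1G62180) lies on chromosome 1 from 22975530 to 22977885, and APR3 (AT4G21990) on chromosome 4 from 11657008 to 11659167, both on the reverse strand. SIR (AT5G04590) lies on chromosome 5 from 1319074 to 1323364 on the forward strand. All are protein-coding, with 1827 to 3325 bases of exon. The paralogs share almost no exact sequence: of all windows of 50 bases in their transcripts, 1 was found in another member, shared by APS1 and APS3. In SIR, 52 of 3276 windows occur elsewhere in the genome. The library kit does not mark strand, and 6 members overlap a gene on the opposite strand, by 117 bases for APS2, 225 for APR2 and 74 or fewer for the other 4 among the genes that were counted. The neighbour of APS2, AT1G19910, reached 5530 counts, against at most 1077 for APS2, so part of the APS2 signal could be shared with it.

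The 500 bases upstream of each gene were searched on both strands for short cores of known TF sites. TGACG, the core of sites bound by TGA factors such as TGA1 and TGA4, was present in 3 members against 32% of 27443 protein-coding genes. APS3 carried it at 2 places, and because APS3 was the member that was higher with TGA1 and TGA4, its sites are shown first, followed by those of APS4 and APR3. With TGA1 and TGA4, APS4 was lower (log2 fold change -0.87 and -0.52), and APR3 was called with neither. Each line gives 30 bases in the direction of the gene, with the match in capitals, from the reference genome TAIR10.1, whose nuclear chromosomes equal TAIR10.
APS3, chr4:8415891-8415920, reverse strand, match starting 258 bases upstream: gtgaatcaactcCGTCAttttcaatgcttt
APS3, chr4:8415772-8415801, reverse strand, match starting 139 bases upstream: aaattatttcgcCGTCAaaaaggaaacaaa
APS4, chr5:17592157-17592186, reverse strand, match starting 437 bases upstream: taaccgttggacTGACGtagagaagacccg
APR3, chr4:11659168-11659197, reverse strand, match starting 10 bases upstream: tctctgccacacgaccaaagTGACGcaagc
The first pair reads CGTCA because the core lies on the other strand. CAACA, the core of sites bound by RAV1, was present in 6 members against 73.3% of all genes, with 3 matches before APS4. GAGAC, the core of the sulfur-responsive element, was found before APS2 alone, at 3 places, against 45.3% of all genes, and CACGTG, the G-box, before none of the 8, against 9.35%. A match of this length is a description of the letters and not a bound site.

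Levels without any TF were read from the 18 EV libraries, per kilobase of exon so that genes can be compared. APR3 had the highest median, 135.6 CPM per kb, followed by APS1 (112 CPM per kb), APS4 (106 CPM per kb) and APR1 (81.9 CPM per kb). APR2 and SIR stood at 31.4 and 26.6 CPM per kb, APS2 at 10.8 and APS3 at 4.76 CPM per kb. Only APR1 over APR2 and SIR over APS2 held in 18 of 18 EV libraries. The other neighbours in this order changed places in 7 or 8 of the 18, so their order is within the spread over all EV libraries, much of which lay between batches. Mean APR3 in EV was 54.9 CPM per kb in batch 4 and 240.4 CPM per kb in batch 1, and APR2 ran from 8.63 CPM per kb in batch 4 to 101.5 CPM per kb in batch 5. APS4 showed another order, with 32.8 CPM per kb in batch 6 and 142.7 CPM per kb in batch 2. APS2 was also lowest in batch 6, at 2.47 CPM per kb, and highest in batch 4, at 14.9 CPM per kb. SIR was the steadiest, between 23.8 and 34.0 CPM per kb. Each TF was therefore compared only with the EV of its own batch.

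**Figure D1:**
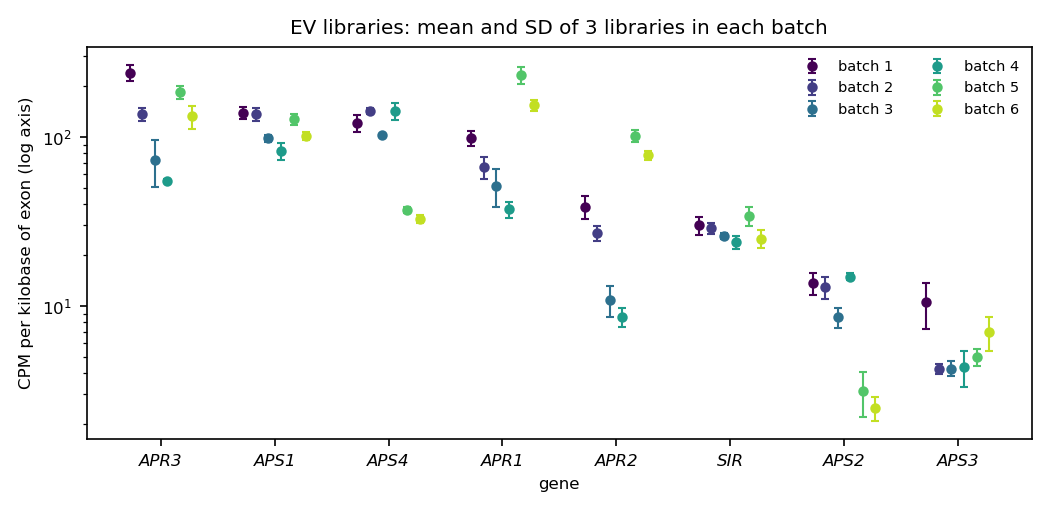
Levels of the 8 genes in EV libraries, in CPM per kilobase of exon on a log axis. Points are the mean of 3 libraries of a batch and bars are the SD. APR3 leads by its median (135.6 CPM per kb) and APS3 is last (4.76 CPM per kb), and the APR genes, APS2 and APS4 shift most by batch.

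Over the 264 pairs of a member and a TF, 46 were higher than EV and 47 lower at an adjusted p under 0.05 (edgeR quasi-likelihood F-test, Benjamini-Hochberg within each TF). These are 17.4% and 17.8% of the pairs, against 4.59% and 4.99% of the pairs of all genes tested. At least 1 member was called for 30 TFs. BEE2, CRF4 and WRKY18 had none, and these TFs had calls for 0.891%, 0.708% and 5.92% of all genes. The directions differed by gene. APS reductases were called only higher, APS4 almost only lower, and APS3 strongly in either direction. The largest change of SIR was 0.66 on the log2 scale, with LBD37. In 15 TFs, members were called in both directions within the same libraries. With all libraries that carry 1 replicate number left out, except for FBH4 and HAT22, the counts were 15 to 47 higher and 26 to 40 lower, the lowest of each without replicate 2. DESeq2 kept all 93 calls.

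**Figure D2:**
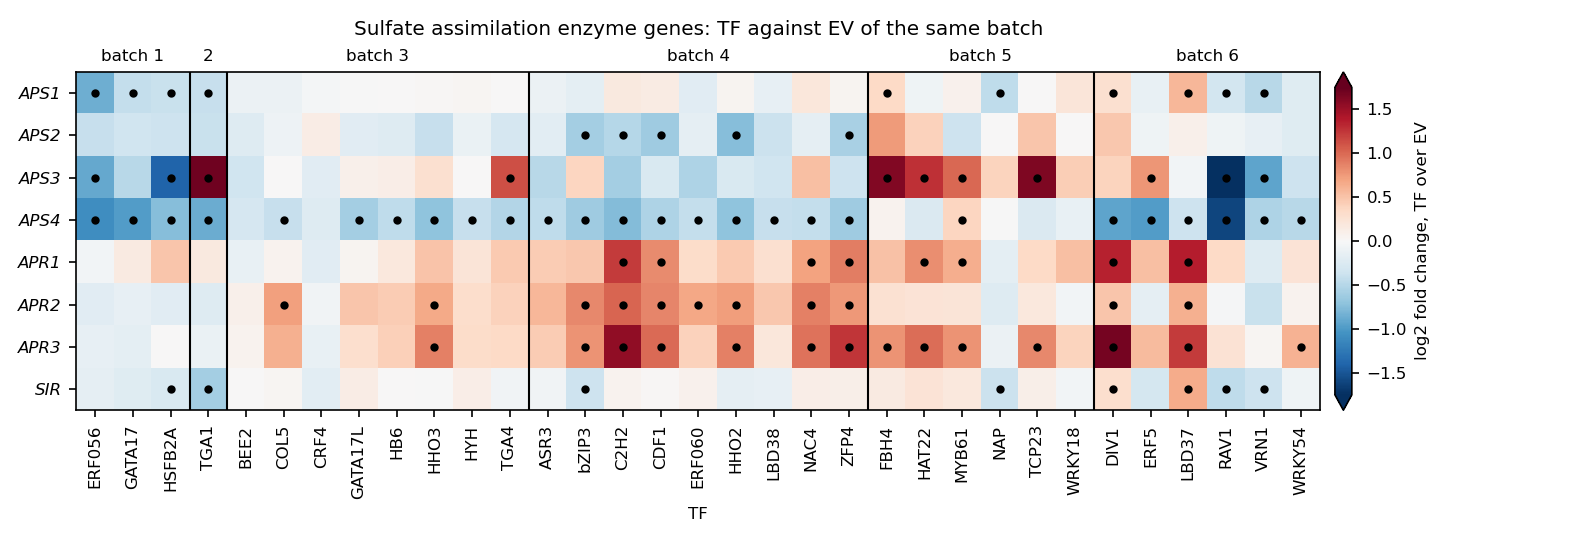
Log2 fold change of each gene (rows) for each TF over the EV of its batch (columns, with batches parted by lines). Red is higher and blue lower in TF cells, colours end at the limits of the bar, and black dots mark adjusted p under 0.05. The APS4 row has 25 dots on blue and 1 on red, while dots in the 3 APR rows are on red squares alone.

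The APS reductases were the members that were higher with most TFs. APR3 was higher with 14 TFs, APR2 with 11 and APR1 with 8, and none of the 3 was lower with any TF. Of all genes, 99.7%, 98.9% and 96.8% had fewer higher calls than APR3, APR2 and APR1. Without replicate 2 the counts were 5, 1 and 3, and when each TF was fitted in its own batch alone they were 12, 12 and 14, with APR2 lower for 1 TF. At least 1 APR gene was higher with 16 TFs. All 3 were higher with C2H2, CDF1, NAC4, ZFP4, DIV1 and LBD37, for which 6.58%, 4.10%, 3.37%, 3.82%, 9.89% and 4.42% of all genes were higher, in that order. These genes make the enzyme that commits sulfate to reduction, and the largest change among them was that of APR3 with DIV1, a MYB-related factor. APR3 had 776, 742 and 803 CPM in DIV1 libraries, against 206, 236 and 282 CPM in EV libraries of batch 6. Every DIV1 library lay above every EV library, and the log2 fold change was 1.68 ± 0.21 (SE, adjusted p = 6.25e-10). With C2H2, a zinc finger factor of batch 4, APR3 had 281, 291 and 312 CPM, against 97.1, 101 and 103 CPM in EV (log2 fold change 1.56 ± 0.21, adjusted p = 9.49e-09). The EV libraries of batch 4 were the lowest in APR3 of the 6 batches.

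APR1 followed the same TFs in part. LBD37, a LOB-domain factor known as a repressor of nitrogen-responsive genes, gave 738, 799 and 789 CPM of APR1, against 278, 294 and 322 CPM in EV. The groups did not overlap, with a log2 fold change of 1.38 ± 0.22 (adjusted p = 1.57e-06). DIV1 gave 786, 780 and 703 CPM of APR1 against the same EV libraries (log2 fold change 1.34 ± 0.22, adjusted p = 1.08e-06). For APR2 the largest changes came with TFs of batch 4. APR2 had 38.8, 34.4 and 34.6 CPM with C2H2, against 19.8, 15.2 and 18.1 CPM in EV (log2 fold change 1.02 ± 0.18, adjusted p = 4.51e-06). NAC4 gave 31.97, 27.0 and 39.2 CPM of APR2 against those EV libraries (log2 fold change 0.89 ± 0.18, adjusted p = 0.00058), a call lost without replicate 2. The calls ranged from 0.48 to 1.02 for APR2, 0.64 to 1.38 for APR1 and 0.61 to 1.68 for APR3 on the log2 scale.

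The batches contributed unequally to these calls. In batch 4, 7 of 9 TFs were called higher for APR2, 6 for APR3 and 4 for APR1, and the log2 fold change was positive for all 9 TFs in each gene. In batches 1 and 2, with 4 TFs, none was called for any APR gene. TFs of a batch share its 3 EV libraries, so their calls are not independent of each other. When each TF was set against the other TFs of its batch in place of EV (an added comparison that TGA1 cannot enter), APR3 was higher with 5 TFs and lower with 5 of 32, APR2 higher with 2 and lower with 3, and APR1 higher with 3 and lower with 2. Of all genes, 5.10% of pairs were higher and 3.89% lower in that comparison. DIV1 and LBD37 were higher in all 3 APR genes there too, and C2H2 in APR1 and APR3. NAP and VRN1 were lower in all 3, although neither was called against EV.

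**Figure D3:**
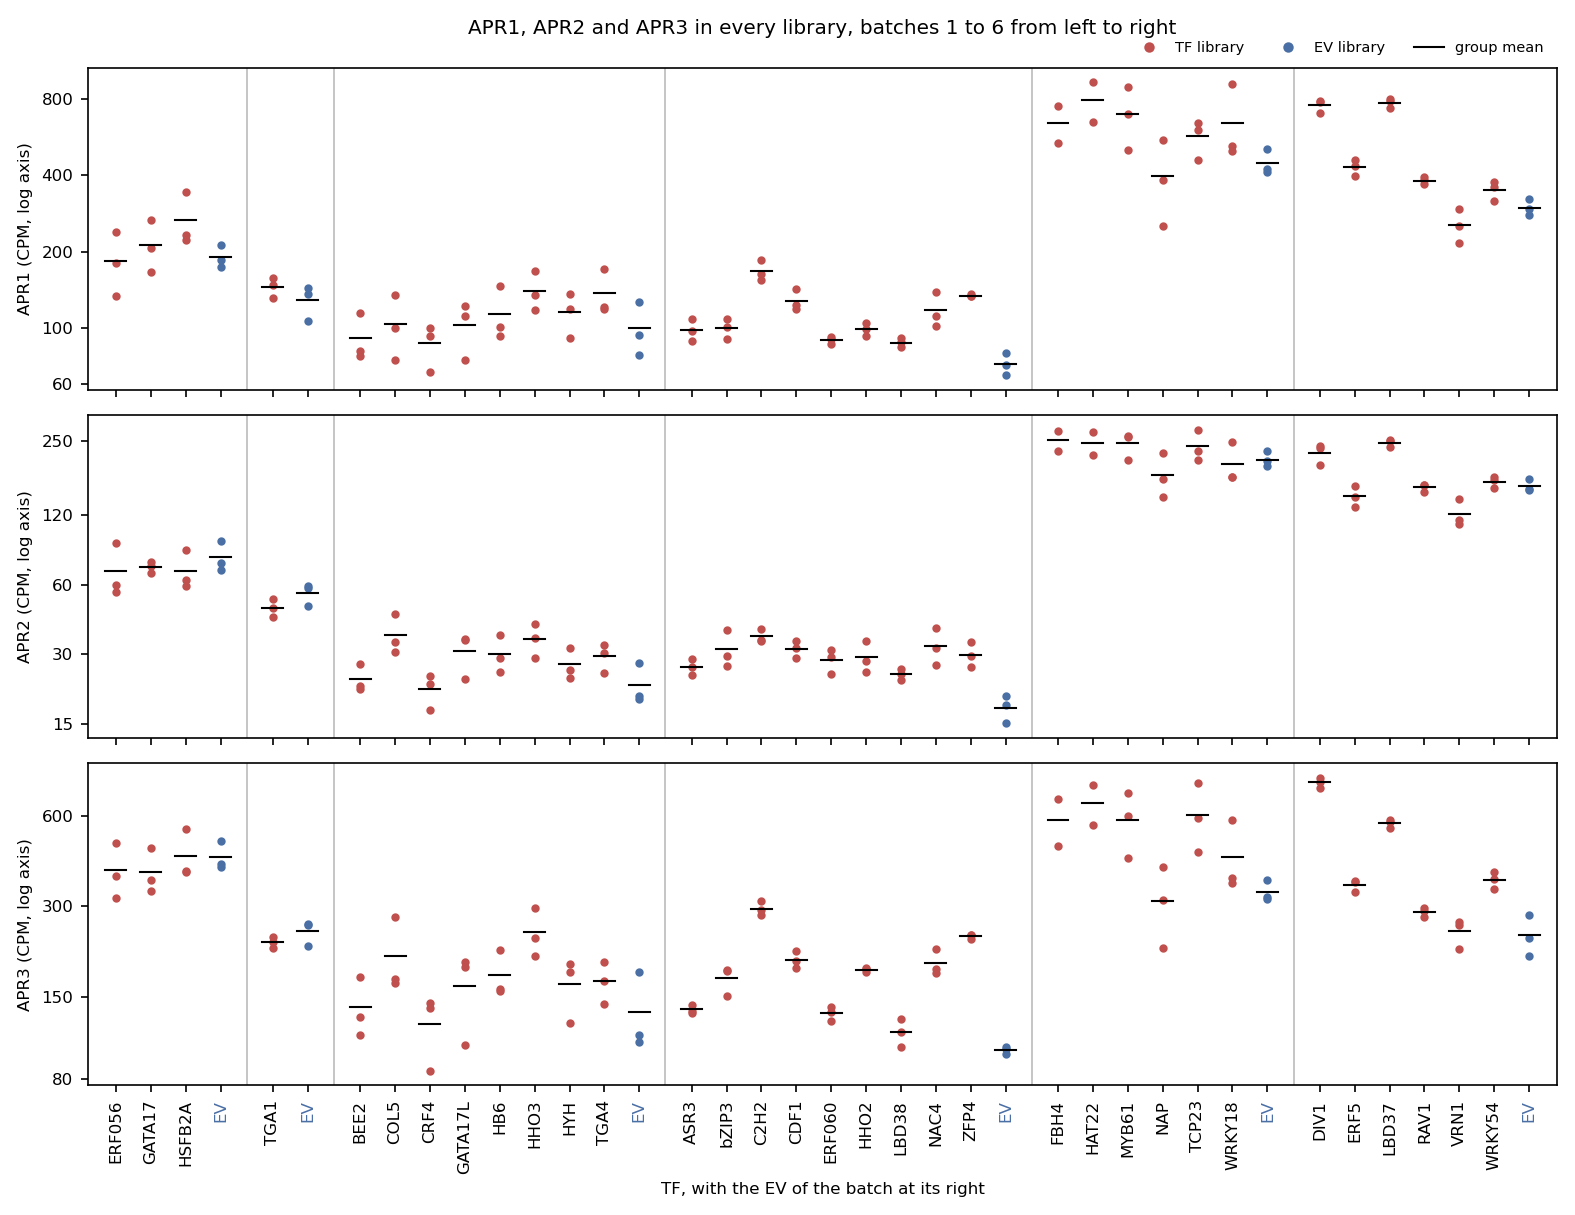
APR1, APR2 and APR3 in each library (CPM, log axes). Points are libraries, with TFs in red and the EV of the batch in blue at its right, and bars are group means. In batch 4 all 9 TF means are above the EV mean in each panel, and in batch 6 DIV1 and LBD37 stand above the other TFs.

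APS4, an ATP sulfurylase, was lower with 25 TFs and higher with MYB61 alone. No gene was lower with more TFs, and 2 genes in all reached 25. Of the 33 log2 fold changes, 31 were negative, with a median of -0.48. All TF libraries lay below all EV libraries for 30 TFs, where 12.9% of pairs of all genes did so. RAV1, a factor with a B3 and an AP2 domain, gave the largest fall. APS4 had 22.3, 16.2 and 24.6 CPM in RAV1 libraries, against 65.9, 59.2 and 62.0 CPM in EV libraries (log2 fold change -1.60 ± 0.12, adjusted p = 3.36e-21). With ERF056, APS4 had 110, 94.8 and 120 CPM, against 230.2, 256 and 205 CPM in EV of batch 1 (log2 fold change -1.09 ± 0.10, adjusted p = 4.63e-16). MYB61 gave 91.6, 92.7 and 89.6 CPM of APS4, against 72.6, 70.6 and 67.7 CPM in EV of batch 5 (log2 fold change 0.38 ± 0.11, adjusted p = 0.00876), a call that was lost without replicate 1 or 2.

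The calls of APS4 covered all 3 TFs of batch 1, TGA1 in batch 2, 6 of 8 TFs in batch 3, all 9 in batch 4 and all 6 in batch 6. In batch 5 none of the 6 TFs was called lower. The added comparison with the other TFs of the batch gave another picture. APS4 was lower there with 4 TFs (RAV1, HHO3, TCP23 and C2H2) and higher with 6 (LBD37, MYB61, WRKY54, VRN1, HSFB2A and CRF4). RAV1 kept a log2 difference of -0.94 (adjusted p = 5.41e-14). LBD37, WRKY54, VRN1 and HSFB2A were called lower against EV and higher here, at 0.54, 0.40, 0.33 and 0.28. COL5, HB6, HYH, ASR3, CDF1, ERF060, LBD38 and NAC4, also lower against EV, had values between 0.0021 and 0.15 that did not pass.

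**Figure D4:**
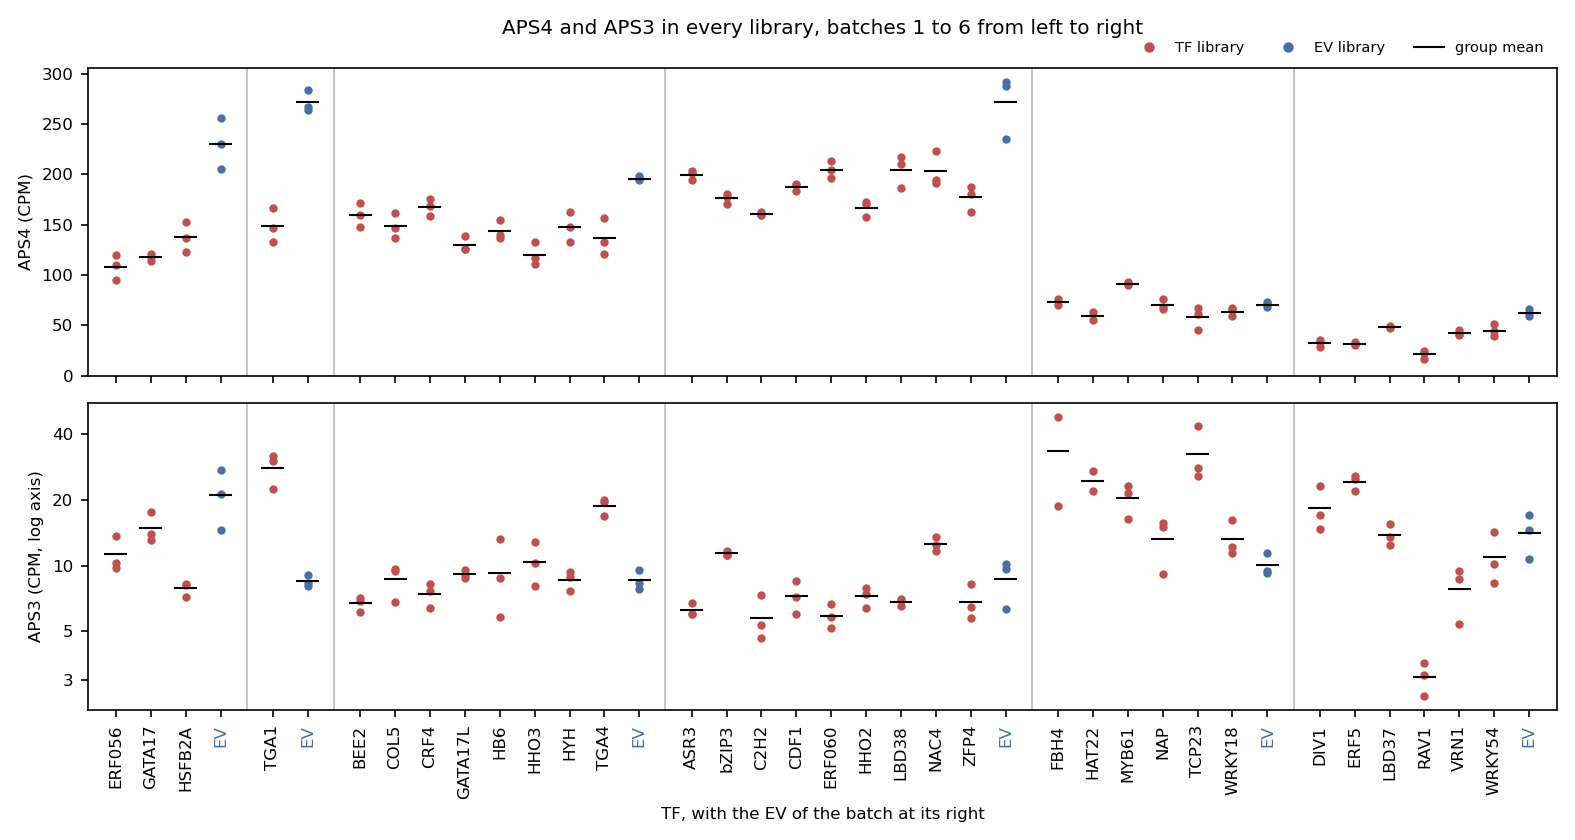
APS4 (upper panel, CPM from 0) and APS3 (lower panel, CPM on a log axis) in each library. Points are libraries, with TFs in red and the EV of the batch in blue at its right, and bars are group means. The APS4 log2 fold change is negative for every TF outside batch 5 and for 4 of the 6 TFs in batch 5. APS3 ranges from RAV1 libraries near 3 CPM to single FBH4 and TCP23 libraries above 40 CPM.

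APS3 had the largest changes of the ATP sulfurylases, higher with 7 TFs and lower with 4, or with 4 and 2 without replicate 2. Of all genes, 95.2% had fewer higher calls than APS3, and 84.2% fewer lower calls. The EV median of APS3 per kilobase was the lowest of the 4, but APS2 was below it in batches 5 and 6 by batch means (2.47 against 7.01 CPM per kb in batch 6). APS3 is also among the genes that the study lists as responding to CHX and removed from its own lists of TF targets. TF and EV cells received CHX alike. TGA1, a bZIP factor known for roles in the nitrate response, gave 22.5, 31.7 and 30.1 CPM of APS3, against 8.37, 8.07 and 9.10 CPM in EV. The lowest TGA1 library was above the highest EV library, and the log2 fold change was 1.71 ± 0.21 (adjusted p = 7.57e-11). TGA4 gave a log2 fold change of 1.13 ± 0.22 (adjusted p = 0.000339). TCP23 libraries held 25.6, 28.0 and 43.7 CPM, against 9.28, 9.49 and 11.4 CPM in EV of batch 5 (log2 fold change 1.63 ± 0.24, adjusted p = 1.2e-07). FBH4, HAT22 and MYB61 of the same batch and ERF5 of batch 6 made up the 7. The 2 FBH4 libraries, at 18.8 and 48.2 CPM, were far apart. RAV1 gave the lowest APS3 of all groups, 3.57, 3.17 and 2.53 CPM, against 10.7, 14.5 and 17.1 CPM in EV (log2 fold change -2.17 ± 0.29, adjusted p = 7.7e-10). HSFB2A, a class B heat shock factor, gave 7.17, 8.14 and 8.27 CPM, against 14.6, 21.2 and 27.3 CPM in EV of batch 1 (log2 fold change -1.40 ± 0.22, adjusted p = 1.25e-07). VRN1 and ERF056 were the other TFs with lower APS3, and the VRN1 call did not pass in its own batch alone (adjusted p = 0.0643) or without replicate 1, 2 or 3.

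APS3 and APS4 moved together with some TFs and apart with others. Both were lower with ERF056, HSFB2A, RAV1 and VRN1 and higher with MYB61, whereas APS3 was higher and APS4 lower with TGA1, TGA4 and ERF5. Their log2 fold changes over the 33 TFs had r = 0.514 (0.0856 in batches 1 to 4 and 0.684 in batches 5 and 6), as a description of TFs that share EV libraries. Against the other TFs of the batch, APS3 was higher with 8 TFs, the largest log2 differences being 1.39 with ERF5 and 1.14 with TGA4. It was lower with 5, from -0.64 with VRN1 to -2.14 with RAV1. MYB61, called for APS3 against EV, stood at -0.07 in that comparison.

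APS1, the most abundant ATP sulfurylase by its EV median, was called for 10 TFs, 3 higher and 7 lower, or 1 and 3 without replicate 2. Of all genes, 78.7% had fewer higher calls than APS1, and 93.4% fewer lower calls. LBD37 gave 284, 292 and 284 CPM of APS1, against 180, 196 and 201 CPM in EV (log2 fold change 0.57 ± 0.09, adjusted p = 1.25e-06). FBH4, with 2 libraries at 306 and 310 CPM, against 261, 226 and 240 CPM in EV, had a log2 fold change of 0.34 ± 0.10 (adjusted p = 0.029), which did not pass within its own batch (adjusted p = 0.162). ERF056 gave the lowest fold change of APS1, with 155, 133 and 150 CPM, against 285, 266 and 243 CPM in EV (log2 fold change -0.86 ± 0.09, adjusted p = 7.67e-13). VRN1 gave 152, 130 and 130 CPM, against 180, 196 and 201 CPM in EV (log2 fold change -0.49 ± 0.10, adjusted p = 0.000311), which was lost without replicate 2 or 3. All 4 TFs of batches 1 and 2 were called lower for APS1, and none of the 17 TFs of batches 3 and 4 was called.

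APS2 was called for 5 TFs, all lower and all in batch 4 (HHO2, CDF1, bZIP3, ZFP4 and C2H2). Of all genes, 88.4% had fewer lower calls than APS2. The count of lower calls for APS2 was 0 without replicate 2 and 2 without replicate 1. It was 8 by DESeq2, and 9 when batches 1 to 4 and 5 and 6 were fitted apart. APS2 was higher with 1 TF by DESeq2 and with 2 TFs without replicate 3. With HHO2, APS2 had 17.1, 16.4 and 17.5 CPM, against 27.1, 29.6 and 28.8 CPM in EV (log2 fold change -0.75 ± 0.17, adjusted p = 0.000901). CDF1 gave 17.3, 19.7 and 18.5 CPM against the same EV libraries (log2 fold change -0.62 ± 0.17, adjusted p = 0.00768). The TF and EV libraries did not overlap in either case. Against the other TFs of batch 4, however, HHO2 stood at -0.35 (adjusted p = 0.16) and CDF1 at -0.21 (adjusted p = 0.465). The HHO2 call was lost without replicate 2, and the CDF1 call without replicate 1 or 2. APS2 counts went down to 5 in a library, and a log2 fold change of 0.75 with FBH4 did not pass (adjusted p = 0.105).

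SIR, which makes sulfide and has no second copy among the members, was higher with 2 TFs and lower with 6, or with 1 and 2 without replicate 2. Of all genes, 68.1% had fewer higher calls than SIR, and 91.3% fewer lower calls. LBD37 gave 120, 116 and 156 CPM, against 71.4, 86.5 and 91.0 CPM in EV (log2 fold change 0.66 ± 0.11, adjusted p = 7.81e-07). DIV1 gave 99.9, 97.7 and 110 CPM against those EV libraries (log2 fold change 0.30 ± 0.11, adjusted p = 0.0296), a call that was lost without replicate 1 or 2 and without a filter on low counts. TGA1 gave the lowest fold change, with 58.4, 66.8 and 65.9 CPM, against 99.5, 100 and 87.6 CPM in EV (log2 fold change -0.59 ± 0.10, adjusted p = 2.45e-06). RAV1 gave 63.5, 62.1 and 57.0 CPM, against 71.4, 86.5 and 91.0 CPM in EV (log2 fold change -0.45 ± 0.11, adjusted p = 0.000746). Both TFs with higher SIR also had all 3 APR genes higher, and of the 6 with lower SIR only bZIP3 had an APR gene higher.

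Read by TF, DIV1 and LBD37 had 5 members higher each, namely APS1, APR1, APR2, APR3 and SIR, while APS4 was lower. Of all genes, DIV1 had 9.89% higher and 15.4% lower, and LBD37 4.42% higher and 6.28% lower. The APS4 call of LBD37 (log2 fold change -0.37) did not pass in its own batch alone (adjusted p = 0.141). MYB61 had 4 members higher (APS3, APS4, APR1 and APR3), against 6.94% of all genes, and its APR1 and APR3 calls did not pass within batch 5 (adjusted p = 0.335 and 0.139). HSFB2A, RAV1 and VRN1 had the most members lower, and these were the same 4 for each, APS1, APS3, APS4 and SIR. The share of all genes that was lower was 12.2% for HSFB2A, 12.2% for RAV1 and 0.839% for VRN1. The SIR calls of HSFB2A (adjusted p = 0.0459) and VRN1 (adjusted p = 0.0495) lay just inside the threshold, and neither passed in its own batch alone.

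Root markers differed from EV for these TFs. With RAV1, 7 of 11 tested markers were lower, and the sum of all 12 was 86.3 to 87.7 CPM, against 190.1 to 193 CPM in EV. With DIV1, SUC2, a phloem marker, was higher and 3 markers were lower, and the sum was 310.3 to 383 CPM. LBD37 had 1 marker lower, CASP1, with a sum of 175 to 187 CPM, and VRN1 had MYB36 lower, with 165 to 199 CPM, against the same EV. HSFB2A had 2 higher and 3 lower (108 to 114.7 CPM, against 97.8 to 99.1 CPM in EV), and MYB61 had 2 higher and 1 lower (188 to 228 CPM, against 215 to 231 CPM in EV). The cortex marker CO2 was at 0 with each of these TFs and its EV, and COBL9 with all but HSFB2A. The part of cell makeup in the results was not tested.

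Related TFs were compared by the difference of their responses, each against its own EV, over 40 differences in 5 pairs, of which 7 passed. LBD37 and LBD38, close paralogs, differed most. Their responses differed by 0.72 ± 0.13 for APS1 (adjusted p = 3.58e-05), 1.09 ± 0.31 for APR1 (adjusted p = 0.0149), 1.03 ± 0.29 for APR3 (adjusted p = 0.0151) and 0.80 ± 0.15 for SIR (adjusted p = 3.06e-05), on the log2 scale and each higher with LBD37. That is 4 of 8 members, against 3.30% of all genes. LBD38 libraries held 102, 115.2 and 127 CPM of APR3, against 97.1, 101 and 103 CPM in EV of batch 4, and thus overlapped EV. APR2 and APS4 responded to LBD37 and LBD38 with a difference of 0.14 (interval -0.34 to 0.62) and 0.04 (interval -0.25 to 0.33), where the intervals are at 95%. The TFs of each of the 5 pairs were assayed in different batches (LBD37 and LBD38 in 6 and 4), so beyond what each EV removes, TF and batch cannot be told apart in any of these differences.

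TGA1 and TGA4 differed in SIR, by -0.53 ± 0.14 (adjusted p = 0.0269), against 1.01% of all genes lower. Their APS3 responses differed by 0.58 (interval -0.01 to 1.16, adjusted p = 0.403). GATA17 and GATA17L differed in APS1 by -0.41 ± 0.13 (adjusted p = 0.0454, 2.72% of all genes lower), and WRKY18 and WRKY54 in APS1 by 0.43 ± 0.13 (adjusted p = 0.0236, 5.51% of all genes higher). Each of these differences in APS1 and SIR was lost without replicate 2, as were those of LBD37 and LBD38 in APR1 and APR3. No member passed between HHO2 and HHO3, with intervals of -0.56 to 0.56 for APR3 and -0.27 to 0.27 for APS4, where 0.350% of all genes passed in either direction.

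The rest of the sulfur pathway was read from lists of 41 genes, 37 of which could be tested. Over 1221 pairs, 141 were higher and 123 lower (11.5% and 10.1%, against 4.59% and 4.99% over all genes). Here too the TFs of a batch share its 3 EV libraries, so their calls are not independent of each other. Values against the other TFs of the batch are not given for these lists. Transporters had 18 pairs higher and 34 lower of 297 (6.06% and 11.4%, against 4.59% and 4.99% over all genes), with a median log2 fold change of -0.0063. SULTR3;1, known for sulfate uptake into chloroplasts, and SULTR3;4 of the same family had the most calls. SULTR3;1 was higher with 6 TFs and lower with 11, with 19.9, 21.5 and 24.1 CPM in TGA1 libraries, against 5.58, 6.67 and 5.60 CPM in EV (log2 fold change 1.86 ± 0.18). RAV1 gave 12.8, 10.53 and 8.04 CPM of SULTR3;1, against 34.6, 28.3 and 33.9 CPM in EV (log2 fold change -1.61 ± 0.19). The TFs at these ends were those of APS3. In batch 4, SULTR3;1 was higher with bZIP3 and lower with every other TF, all against the same EV libraries. SULTR3;4 was higher with 3 TFs and lower with 12, between -1.27 ± 0.38 with RAV1 and 1.19 ± 0.29 with MYB61. Its levels at these ends were low, beside a median of 15.5 CPM over all EV libraries. RAV1 libraries had 1.19, 1.53 and 0.919 CPM, against 2.96, 3.91 and 2.465 CPM in EV. MYB61 libraries had 6.58, 7.43 and 6.59 CPM, against 2.98, 2.79 and 3.18 CPM in EV.

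The APS kinases lead the other use of adenosine 5'-phosphosulfate. They had 14 pairs higher and 19 lower of 132 (10.6% and 14.4%, against 4.59% and 4.99% over all genes). Nearly all came from APK2 (8 TFs higher, 12 lower) and APK1 (5 higher, 7 lower). APK2 had 126 and 140 CPM in HAT22 libraries, against 32.65, 36.02 and 47.4 CPM in EV (log2 fold change 1.77 ± 0.12). With bZIP3 it had 18.4, 20.7 and 18.5 CPM, against 40.8, 33.85 and 36.45 CPM in EV (log2 fold change -0.95 ± 0.11). APK1 ranged from -0.67 with GATA17 to 1.19 with NAP. Of the 6 TFs with all 3 APR genes higher, DIV1 and LBD37 had lower APK2, and C2H2, CDF1, NAC4 and ZFP4 had no APK2 call. APK2 was higher with all 6 TFs of batch 5, of which FBH4, HAT22, MYB61 and TCP23 had an APR gene higher and NAP and WRKY18 had none. HSFB2A and RAV1, also without an APR call, had higher APK2 as well. COL5, HHO3 and bZIP3, each with an APR gene higher, had lower APK2.

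Genes of cysteine and glutathione synthesis had 20 pairs higher and 47 lower of 330 (6.06% and 14.2%, against 4.59% and 4.99% over all genes). OAS-C, a mitochondrial O-acetylserine lyase, was lower with 10 TFs and higher with 3, from -0.85 with GATA17 to 0.71 with MYB61. GSH2, the glutathione synthetase, was lower with 9 and higher with 3, from -0.68 with TGA1 to 0.69 with DIV1. The DIV1 libraries, at 12.9, 22.1 and 22.3 CPM, overlapped EV, at 8.87, 10.6 and 14.8 CPM. Regulators of sulfur metabolism had 10 pairs higher and 17 lower of 165 (6.06% and 10.3%, against the same shares over all genes). Among these, the call of HYH on itself reads its own plasmid. MYB51, a regulator of indole glucosinolates that is on the list of CHX-responsive genes, was higher with 6 TFs and lower with 9. MYB34 was lower with 6, and SLIM1, known as a central regulator of the sulfur starvation response, was higher with HSFB2A and lower with RAV1.

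The sulfur starvation markers had 79 pairs higher and 6 lower of 297 (26.6% and 2.02%, against 4.59% and 4.99% over all genes). Their median log2 fold change was 0.42, against 0 over all pairs of all genes. SDI1, a repressor of glucosinolate synthesis, was higher with 18 TFs and lower with none, and SHM7 was higher with 14. The SDI1 log2 fold change was positive with every TF but VRN1 (-0.12), TFs of a batch being set against the same EV libraries. SDI1 had 45.5, 40.2 and 57.7 CPM in HHO2 libraries, against 17.9, 15.9 and 15.05 CPM in EV of batch 4 (log2 fold change 1.55 ± 0.21). The value of 15.05 CPM was the lowest SDI1 of all EV libraries. SHM7 had 541, 546 and 523 CPM with LBD37, against 310, 320 and 348 CPM in EV (log2 fold change 0.72 ± 0.13). Of the 16 TFs with an APR gene higher, 10 had SDI1 higher, and 8 of the other 17 did. Over the 9 markers, 57 of 144 pairs were higher in the TFs with an APR gene higher and 22 of 153 in the others, while BGLU28 was higher with 2 of 16 and 1 of 17 TFs and LSU4 with 0 of 16 and 1 of 17. The share of all genes that was higher ran from 1.03% (HHO3) to 10.4% (HAT22) in the TFs with an APR gene higher. In the others it ran from 0.302% (BEE2) to 12.2% (RAV1). The marker counts come from the same TF and EV libraries as the APR calls and were not tested. The split of TFs also follows batch in part. In batch 4, only ASR3 and LBD38 had no APR gene higher, while in batches 1 and 2 no TF had one. SDI1, SDI2, LSU1, SHM7, GGCT2;1 and APR3 are known to rise together in Arabidopsis when O-acetylserine accumulates. BGLU28, which releases sulfur from glucosinolates, held 5 of the 6 lower pairs.

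The genes with the most similar log2 fold changes over the 33 TFs were read among 10519 genes with a mean of at least 10 CPM. These correlations describe TFs that share EV libraries within a batch. APR1 and APR3 were each other's nearest gene (Pearson r = 0.868, with 0.845 in batches 1 to 4 and 0.91 in batches 5 and 6). SDI1 (r = 0.815) and the glutathione transferase GSTU8 (0.773) came next for APR1, and DHAR2 (0.861), a dehydroascorbate reductase, and GSTU19 (0.818), a glutathione transferase, for APR3. APR2 was nearest to LSU3 (0.824), CEN2 (0.777) and AT4G31290 (0.769). APS4 was nearest to AT1G80360 (0.871), AT5G17010 (0.849) and PMSR3 (0.846), a methionine sulfoxide reductase, and had r = 0.0704 with APR3. APS1 was nearest to VDAC2 (0.811), FBA8 (0.806) and AT4G21580 (0.785). SIR was nearest to UBQ3 (0.765), UBC8 (0.761) and APS1 (0.744). APS3 had PGLP2 (0.773), ABCB21 (0.758) and BZIP9 (0.751). In that order, r was 0.509, 0.895 and 0.473 in batches 1 to 4, and 0.884, 0.658 and 0.876 in batches 5 and 6. APS2 had RR5 (0.807), AT5G14590 (0.803) and CAM7 (0.798). For these, r was 0.578, 0.84 and 0.726 in batches 1 to 4, and 0.714, 0.458 and 0.558 in batches 5 and 6. No ATP sulfurylase was among the 3 nearest genes of another.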

How the data were processed

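Root protoplast RNA was sequenced after the TARGET assay. Reads were aligned to TAIR10 with TopHat2, and GenomicFeatures and GenomicAlignments gave the gene counts. The authors deposited these counts unnormalized, each library on its own. How multi-mapping reads were treated is not given in the sources used here. Groups, batches and replicate numbers were read from the labels.

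A gene entered the fit if 3 or more libraries had 10 or more counts. The counts of all TF and EV libraries were fitted in edgeR 4.0.16 (R 4.3.3, limma 3.58.1) with TMM, robust dispersions, the robust quasi-likelihood fit, and TF and batch as terms (39 coefficients, 76 residual degrees of freedom). P-values were adjusted by Benjamini-Hochberg within each TF over all genes at 0.05, and the SE was obtained from the fold change and its F statistic. Precision follows depth, since members had 5 to 9881 counts per library.

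The members, lists and comparisons were chosen with earlier results of these data known. For each member, library values are given for the TFs with the 2 highest and 2 lowest called changes. TFs are named by the 3 highest counts of members called in each direction, and list genes by the 2 with most calls. SLIM1, BGLU28, TGA4 and the other TFs named from an added comparison were chosen after their values were seen. Exon lengths and sequences are from RefSeq (TAIR10.1). Alternatives were DESeq2 1.42.0, its size factors, no filter, a replicate block, own batch only, batches 1 to 4 and 5 and 6 apart, the TFs' own genes left out of the scaling, CHX-responsive genes left out, and each replicate number left out. The comparison with the other TFs of a batch, and counts by batch, were added after seeing the data.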

Additional observations from a re-analysis of the deposited data

How the results depend on the processing

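The 93 calls of members kept their direction under the settings named next and when a replicate number was left out. With CHX-responsive genes left out, APS3 has no value, and 39 higher and 43 lower calls stand for the other 7 genes. DESeq2, the scaling without the TFs' own genes and the replicate block kept 93 calls each, DESeq2 size factors 91, no filter 86, batches 1 to 4 and 5 and 6 fitted apart 85 and own batch only 80. Leaving out a replicate number kept 41 to 78. The count of higher calls, 46, moved to 71 with the replicate block, to 22 over batches 1 to 4 alone and to 29 with batch 4 left out, and ran from 15 to 47 when a replicate number was left out. Lower calls, 47, ran from 26 to 40 then, and came to 30 against the other TFs of the batch, where higher calls came to 33 and 34 of 89 calls were kept and 69 kept their direction. Among the calls that reversed in that comparison were APS1 with HSFB2A (to 0.26) and GATA17 (to 0.20) and APS3 with MYB61 (to -0.066). APS4 reversed there with HSFB2A (to 0.28), LBD37 (to 0.54), WRKY54 (to 0.40) and VRN1 (to 0.33), among others. For the other sulfur genes, 141 higher and 123 lower calls ran from 67 to 129 and from 43 to 87 when a replicate number was left out. The 7 differences between related TFs became 4 without a filter, 13 with the replicate block and 2 to 6 when a replicate number was left out. The order of the 8 genes in EV kept 6 to 8 places. Fewer TFs or libraries enter where batches or replicates are left out, and the cause of the other shifts was not tested.

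Pairing of libraries by replicate number was looked for in their correlations. In 0 of 33 TFs did every library correlate above 0.1 with the EV of its number (median r = 0.0102). Yet 63 of 97 TF libraries correlated better with that EV than on average with the other EV. Such a threshold cannot exclude a weak pairing, so whether the numbers pair the libraries was not settled. Under the replicate block, other sulfur genes had 202 higher and 149 lower calls. APR1, APR2 and APR3 were higher with 19, 17 and 22 TFs under the replicate block, and APR2 lower with 1. APS2 had as few as 5 counts in a library, which limits the precision of its values there.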
